A study of Mus musculus with 6 samples.

Results

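The genes described here are 10 genes of blood vessels and of their growth, Pecam1, Cdh5, Emcn, Vwf, Kdr, Flt1, Tek, Tie1, Vegfa and Angpt2, followed through 6 mouse tumors. They were taken by name, as the entries of the gene count table that carry these symbols. All 10 were found, once each, among 23358 gene entries, and all 10 had enough counts to be tested.

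The tumors came from female mice that carried NT3, an allele of the kinase NIK without the domain that binds TRAF3, silent until Cre removes a stop cassette, so that alternative NF-κB signaling stays on. In Osx-Cre;NT3 mice (tumors 13, 18 and 25) the Cre was driven by Osterix in a Tet-OFF system, the strain was a mix of C57Bl/6J and CD1, and the Cre was held off with doxycycline chow until weaning. In FSP1-Cre;NT3 mice (tumors 27, 29 and 36) it was driven constitutively by FSP1, also called S100a4, on an FVB/n background, and the NT3 parent of both crosses was on C57Bl/6J. Tumors 13, 18, 25 and 29 grew on the trunk, and tumors 27 and 36 were perineal. The tumors appeared at 150, 168 and 115 days in Osx-Cre;NT3 mice and at 101, 72 and 52 days in FSP1-Cre;NT3 mice. Line, strain background, doxycycline, latency and in part site therefore differed together and cannot be told apart. Both drivers are also active in some cells outside the mesenchymal lineage, mainly hematopoietic ones. The tumors are named by the numbers in their labels. The sources used here do not state that each came from a different mouse, so the p-values measure the spread between these tumors. No normal tissue was analysed here.

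Blood vessels are lined by endothelial cells, which are held together by VE-cadherin (Cdh5) and PECAM-1 (Pecam1). Their growth is driven by VEGF-A, which is made by tumor and stromal cells, rises in hypoxia and is read by the receptors VEGFR2 (Kdr) and VEGFR1 (Flt1) on the endothelium. A second system, the angiopoietins and the receptor TIE2 (Tek), sets how stable a vessel is, and angiopoietin-2 (Angpt2) is released by endothelial cells of remodelling and sprouting vessels. In a whole tumor, RNA of these genes depends on how many endothelial cells the piece held and on what each cell transcribed, and fewer cells of a type and less RNA per cell cannot be told apart.

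Total gene counts ranged from 51824408 (tumor 13) to 163297772 (tumor 18), and the next highest total was 75435102 (tumor 29). Tumor 18 also had the lowest mean level of the endothelial genes, and a link with its depth was not tested. The 10 genes had from 424 counts (Tek, tumor 13) to 12984 counts (Vegfa, tumor 25), so the number of tumors and not the depth limits the precision. The average RNA integrity number in the labels was 7.7 in the Osx-Cre;NT3 tumors, lower than the 8.5 in the other line. Tumor 36 stood apart from the others, with 2069 CPM (counts scaled to the same library size) summed over 4 smooth muscle genes against 225 to 507 CPM in the other 5 tumors. Summed over 4 genes of simple epithelium it had 4263 CPM against 565 to 1168 CPM. Results are therefore also given without tumor 36.

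On the mm10 genome the table places the adhesion genes at chr11:106654218-106715281 (Pecam1) and chr8:104101625-104144502 (Cdh5), the surface mucin Emcn at chr3:137341078-137431069 and Vwf at chr6:125552963-125686677. The VEGF receptors both lie on chromosome 5, Kdr at chr5:75933270-75978428 and Flt1 at chr5:147562196-147725988, and the ligand Vegfa lies at chr17:46016993-46032377. The TIE receptors both lie on chromosome 4, Tek at chr4:94739300-94874939 and Tie1 at chr4:118471191-118489849, and Angpt2 lies at chr8:18691337-18741551. All 10 are protein coding in GENCODE M21, and the values are summed over the exons of each gene. Angpt2 sits on the minus strand inside Mcph1 on the plus strand, and 0 of its 3690 annotated exon bases are also exonic in Mcph1. Strand use in counting is not given in the sources used here, so reads of Cdh5 cannot be told from those of its antisense neighbor Gm29682, which has no entry in the table.

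Promoters of 4 endothelial genes are shown because, as described further on, Tie1 and Kdr kept close to the shared pattern of the endothelial genes over the tumors and Tek and Emcn did not. Each is the 250 bases before the RefSeq transcription start site (GRCm38.p6), written 5′ to 3′ on the strand of the gene, and capitals mark GGAA, the core bound by ETS transcription factors, on either strand (TTCC on the strand shown). Tie1 is at chr4:118489850-118490099 (minus strand), Kdr at chr5:75978456-75978705 (minus strand), Tek at chr4:94739039-94739288 (plus strand) and Emcn at chr3:137340828-137341077 (plus strand).
Tie1: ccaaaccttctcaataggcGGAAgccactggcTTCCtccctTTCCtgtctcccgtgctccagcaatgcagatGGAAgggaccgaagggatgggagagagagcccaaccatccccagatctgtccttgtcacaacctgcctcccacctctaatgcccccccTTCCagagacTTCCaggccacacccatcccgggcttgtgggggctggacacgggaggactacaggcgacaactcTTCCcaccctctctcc
Kdr: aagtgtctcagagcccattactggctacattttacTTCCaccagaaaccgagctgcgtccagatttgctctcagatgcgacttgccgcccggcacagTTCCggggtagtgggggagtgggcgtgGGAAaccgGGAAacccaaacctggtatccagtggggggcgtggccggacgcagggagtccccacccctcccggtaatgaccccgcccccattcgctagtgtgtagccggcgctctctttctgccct
Tek: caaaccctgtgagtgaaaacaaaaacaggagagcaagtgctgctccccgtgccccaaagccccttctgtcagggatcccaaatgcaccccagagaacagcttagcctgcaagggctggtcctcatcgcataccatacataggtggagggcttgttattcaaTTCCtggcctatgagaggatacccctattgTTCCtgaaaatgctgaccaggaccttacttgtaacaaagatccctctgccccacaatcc
Emcn: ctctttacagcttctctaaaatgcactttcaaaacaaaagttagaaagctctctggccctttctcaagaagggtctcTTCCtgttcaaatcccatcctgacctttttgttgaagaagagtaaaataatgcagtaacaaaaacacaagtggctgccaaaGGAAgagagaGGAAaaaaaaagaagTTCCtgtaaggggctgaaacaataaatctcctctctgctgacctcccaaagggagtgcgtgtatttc
GGAA occurred 7 times in the Tie1 promoter, 4 times each in those of Kdr and Emcn and 2 times in that of Tek, against a median of 3 in 32851 mouse promoters of this length. Of the 10 genes, 6 had a promoter in the RefSeq table, with 2 start sites for Vegfa. GGAA was found in 7 of these 7 promoters and in 93.45% of all promoters, so nearly all promoters hold it. The longer ETS motif CAGGAA, which contains GGAA, was found in 4 of 7 (Tek, Tie1, Emcn and the first start of Vegfa) and in 25.71% of all. ACGTG, the core of a hypoxia response element, was found in 1 of 7, at the second start of Vegfa, and in 16.57% of all. That window, chr17:46025164-46025413, lies inside the Vegfa gene and not before its first start. Sequence farther than 250 bases from a start was not searched. The κB motif of NF-κB was found in 3 of 7 (Kdr, Flt1 and the first start of Vegfa) and in 7.251% of all. Both strands were searched for each motif. These matches are descriptions of letters and not of binding. Pecam1, Cdh5, Vwf and Angpt2 were not in the promoter table.

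All 10 genes were expressed in every tumor. On the RPKM scale, which divides counts by gene length and library size and so allows genes to be compared, mean levels over the 6 tumors ran from 24.7 ± 9.75 (SD, n = 6) for Pecam1 to 2.32 ± 1.04 for Tek. Between them came Vegfa with 17.5 ± 10.9, Emcn with 15.8 ± 3.88, Cdh5 with 13.5 ± 6.44 and Tie1 with 9.0 ± 3.98. Lower still were Angpt2 with 6.22 ± 2.12, Vwf with 6.11 ± 3.13, Kdr with 5.19 ± 3.13 and Flt1 with 3.13 ± 1.76 RPKM. Among all gene entries these means stood between the 89.2nd percentile (Pecam1) and the 53.5th (Tek). Most neighbors in this order could not be separated. Only Cdh5 over Tie1 and Kdr over Flt1 held in 6 of 6 tumors, Pecam1 over Vegfa and Flt1 over Tek held in 5, Vwf over Kdr in 4, and the other 4 neighboring pairs in 3 of 6.

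**Figure D1:**
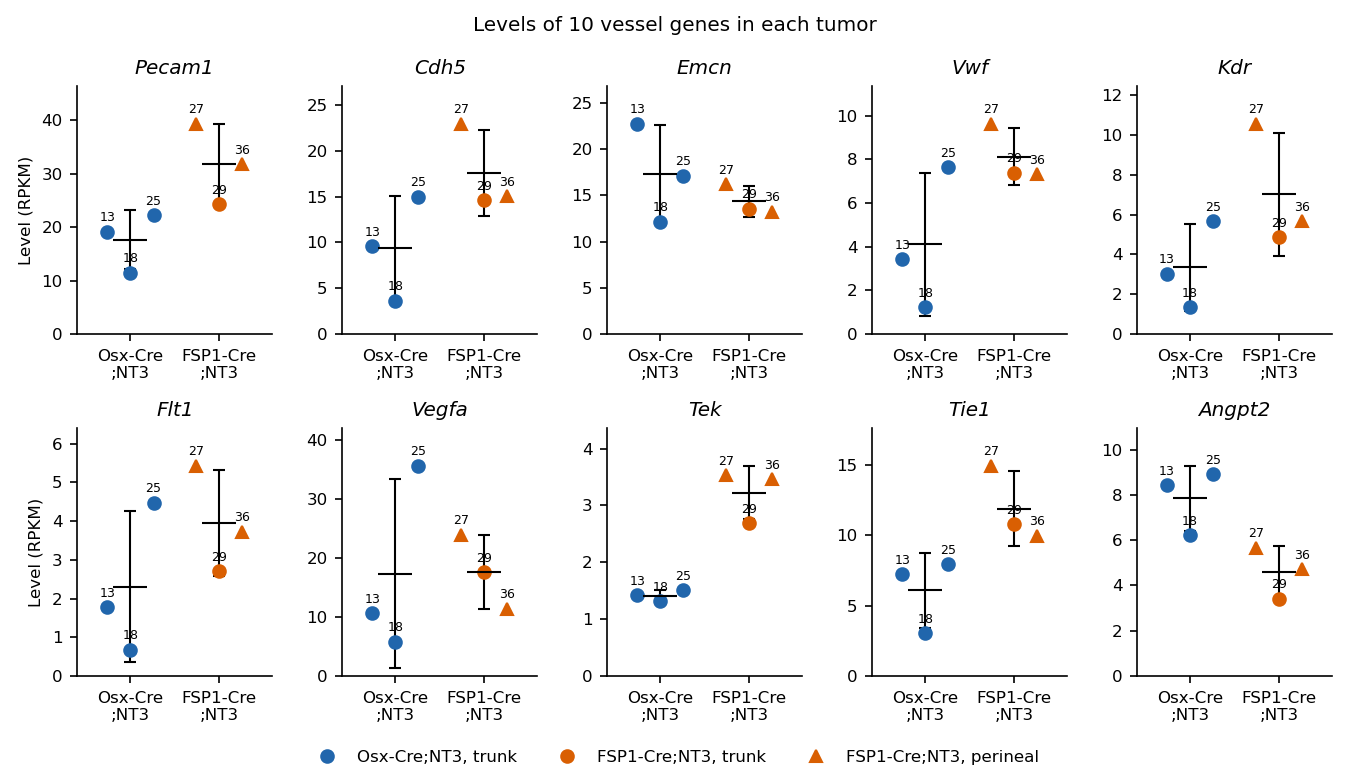
Level of each of the 10 genes in RPKM (vertical axes, each starting at 0) in tumors of each line. Points are single tumors with their numbers, triangles are perineal tumors, and horizontal bars with whiskers are means ± SD (n = 3). The lines do not overlap for Pecam1, Tek and Tie1, which are higher in FSP1-Cre;NT3 tumors, and for Angpt2, which is lower.

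The junction genes followed each other. Pecam1, which codes for an adhesion protein at endothelial contacts and is also found on platelets and leukocytes, had 19.2, 11.5 and 22.2 RPKM in the Osx-Cre;NT3 tumors 13, 18 and 25 and 39.3, 24.3 and 31.8 RPKM in the FSP1-Cre;NT3 tumors 27, 29 and 36. Every FSP1-Cre;NT3 tumor was above every Osx-Cre;NT3 tumor. Cdh5, the cadherin of endothelial junctions, had 9.61, 3.64 and 15.0 RPKM in the Osx-Cre;NT3 tumors and 23, 14.6 and 15.1 in the FSP1-Cre;NT3 tumors. Here the lines overlapped, because tumor 25 stood just above tumor 29. For both genes tumor 18 was the lowest and tumor 27 the highest of the 6.

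Vwf and Emcn, other products of endothelial cells, differed from each other. Vwf, the clotting factor that endothelial cells store, had 3.42, 1.23 and 7.65 RPKM in the Osx-Cre;NT3 tumors and 9.63, 7.40 and 7.33 in the FSP1-Cre;NT3 tumors, so tumor 25 reached the FSP1-Cre;NT3 levels and the other 2 Osx-Cre;NT3 tumors did not. Emcn, a mucin of capillary and venous endothelium, had 22.8, 12.1 and 17.1 RPKM in the Osx-Cre;NT3 tumors and 16.2, 13.6 and 13.2 in the FSP1-Cre;NT3 tumors. It was the steadiest of the 10 genes, with 1.87-fold between its highest and lowest tumor on the RPKM scale against 7.82-fold for Vwf.

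The 2 VEGF receptors were low where the junction genes were low. Kdr, the main signaling receptor for VEGF-A, had 3.04, 1.34 and 5.67 RPKM in the Osx-Cre;NT3 tumors and 10.6, 4.86 and 5.67 in the FSP1-Cre;NT3 tumors. Flt1, which binds VEGF-A tightly and limits its signal, had 1.78, 0.674 and 4.47 RPKM in the Osx-Cre;NT3 tumors and 5.42, 2.71 and 3.72 in the FSP1-Cre;NT3 tumors. Both were lowest in tumor 18 and highest in tumor 27, with 7.88-fold and 8.05-fold between them, and both overlapped between the lines. Their ligand Vegfa had 10.6, 5.81 and 35.6 RPKM in the Osx-Cre;NT3 tumors and 23.9, 17.6 and 11.4 in the FSP1-Cre;NT3 tumors. Tumor 18 was again the lowest, but the highest was tumor 25, and the Osx-Cre;NT3 tumors spanned the whole range of the FSP1-Cre;NT3 tumors.

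In the angiopoietin system, Tek and Angpt2 had the smallest unadjusted edgeR p-values of the 10 genes between the lines. Tek, the receptor TIE2, had 1.42, 1.32 and 1.51 RPKM in the Osx-Cre;NT3 tumors and 3.53, 2.68 and 3.46 in the FSP1-Cre;NT3 tumors. On the CPM scale the 3 Osx-Cre;NT3 tumors lay within 1.09-fold of each other for Tek, while the same 3 tumors differed 3.83-fold for Cdh5, 3.93-fold for Kdr and 5.78-fold for Vwf. Tie1, the co-receptor that pairs with TIE2, had 7.23, 3.06 and 7.97 RPKM in the Osx-Cre;NT3 tumors and 15.0, 10.8 and 9.97 in the FSP1-Cre;NT3 tumors. Angpt2, the ligand of TIE2 stored in endothelial cells, went the other way, with 8.42, 6.22 and 8.92 RPKM in the Osx-Cre;NT3 tumors and 5.67, 3.41 and 4.72 in the FSP1-Cre;NT3 tumors. None of these 3 genes overlapped between the lines, and Angpt2 was the only one of the 10 with every FSP1-Cre;NT3 tumor below every Osx-Cre;NT3 tumor.

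The comparison of the lines asked whether tumors made with the 2 drivers differ in these genes. Tek was 2.13 times higher in FSP1-Cre;NT3 tumors by mean CPM. In edgeR's quasi-likelihood test its fitted log2 fold change was 1.09 (SE 0.22, 95% interval 0.56 to 1.62), and its edgeR p after Benjamini-Hochberg adjustment was 0.432. Pecam1 had a log2 fold change of 0.75 (SE 0.28) and Tie1 of 0.87 (SE 0.36), each with an edgeR adjusted p of 0.458. Angpt2 was lower in FSP1-Cre;NT3 tumors, at -0.88 (SE 0.25) on the log2 scale and with the same edgeR adjusted p. These 4 genes had unadjusted p-values of 0.00187 (Tek), 0.0109 (Angpt2), 0.0309 (Pecam1) and 0.0487 (Tie1) in the edgeR fit across all genes. Of the other 6 genes none had an unadjusted p under 0.05.

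No gene passed the adjusted threshold of 0.05 between the lines with edgeR, 0 of 16415 tested and so 0 of the 10. At an unadjusted p under 0.05 edgeR gave 4 of the 10 genes, against 10.8% of all genes tested. That is 3 higher (7.31% of all genes) and 1 lower (3.47%). On leaving out any 1 tumor, Tek and Angpt2 kept an unadjusted edgeR p under 0.05. Pecam1 and Tie1 lost it without tumor 13, 18, 27 or 36, and Tie1 also without tumor 29. Without tumor 25, Cdh5, Kdr, Flt1 and Vwf had one as well, where 4245 of 16820 genes did. The 4 genes without overlap between the lines in CPM stand against 17.0% of all genes tested, with 3 higher against 9.03% and 1 lower against 7.97%. DESeq2, the tool named in the study's methods, run here as an alternative, called 412 genes (2.51% of those tested, 2.11% higher and 0.396% lower). Of the 10 genes 1 was among them, Tek, at 1.08 on the log2 scale (DESeq2 adjusted p = 0.000191). Tek was also called by DESeq2 in each of the 6 fits that left out 1 tumor, with adjusted p-values from 7.76e-06 to 0.0351. With edgeR its adjusted p ran from 0.0788 to 1.00 over the alternatives tried, so the call for Tek rests on the choice of tool. Angpt2 missed the threshold with DESeq2 (adjusted p = 0.0544) and passed it in 2 of the 6 fits that left out 1 tumor. Among the 16415 genes ranked by their edgeR p, Tek was at place 71 and Angpt2 at place 376.

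**Figure D2:**
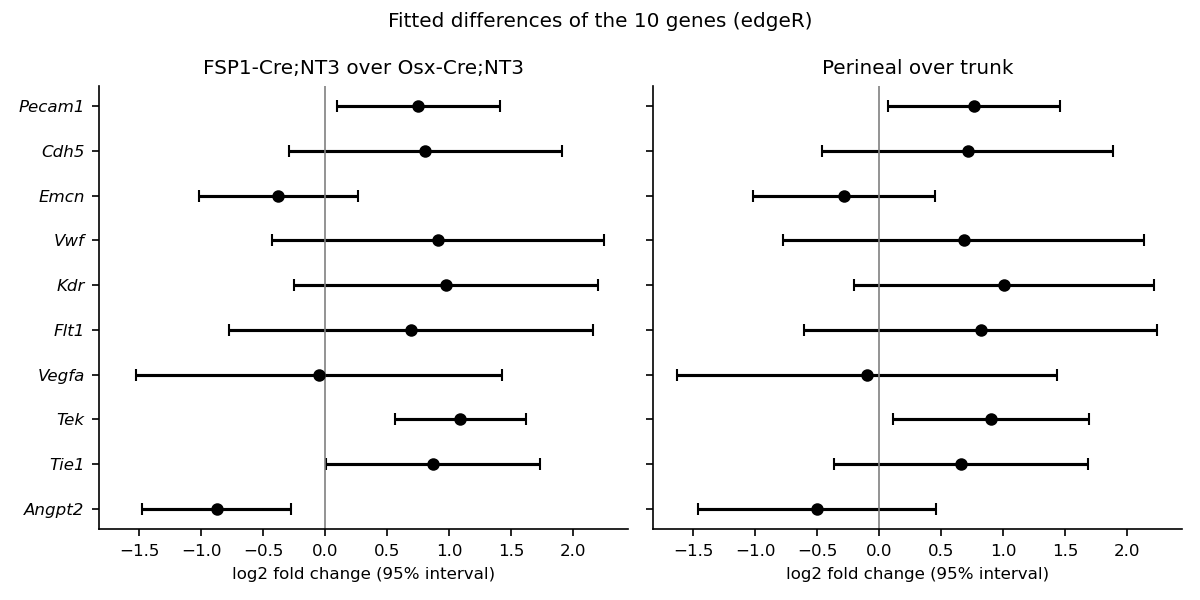
Fitted log2 fold change of each gene (points) with its 95% interval (whiskers) from edgeR, between the lines on the left and between tumor sites on the right. On the left the intervals of Pecam1, Tek and Tie1 lie above 0 and that of Angpt2 below it before adjustment, and no gene passes the threshold after adjustment. On the right only Pecam1 and Tek lie clear of 0.

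For the remaining genes the intervals were wide. Kdr had a log2 fold change of 0.97 (95% interval -0.25 to 2.20), Vwf of 0.91 (-0.43 to 2.25), Cdh5 of 0.81 (-0.29 to 1.91) and Flt1 of 0.69 (-0.78 to 2.16), all higher in FSP1-Cre;NT3 tumors on average. Emcn was lower by average, with -0.38 (-1.02 to 0.26), an interval that includes 0. Vegfa had -0.05 (-1.53 to 1.43), an interval that leaves room for large differences in both directions. Taking the 8 endothelial genes, those other than the ligands Vegfa and Angpt2, 7 of 8 were higher in FSP1-Cre;NT3 tumors. Their median log2 fold change was 0.84, where 51.1% of all genes tested were higher and the median of all was 0.015. Fibroblast genes, 5 of 5 higher, moved with the line as well, at summed levels of 3340 to 4159 CPM in Osx-Cre;NT3 and 7053 to 9870 CPM in FSP1-Cre;NT3 tumors, and their part in the endothelial values was not tested. The same 7 of 8 endothelial genes were higher on leaving out any 1 tumor, with medians from 0.50 without tumor 18 to 1.14 without tumor 25. Their median was 0.56 with site as a covariate and 0.56 in the trunk tumors alone. These last fits rest on 1 trunk tumor of the FSP1-Cre;NT3 line.

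Leaving out tumor 36 gave log2 fold changes of 1.01 for Tek, -0.92 for Angpt2, 0.72 for Pecam1 and 0.96 for Tie1, close to those with all tumors. Tumor 25 mattered more for the VEGF receptors and Vwf. Without it edgeR gave 1.63 for Vwf, 1.5 for Flt1, 1.49 for Kdr, 1.22 for Cdh5 and 0.91 for Vegfa, and DESeq2 then called Pecam1, Cdh5, Kdr, Flt1 and Vwf as well as Tek and Angpt2 among 3637 genes in all. Without tumor 18, the tumor with the lowest endothelial levels, edgeR gave 0.26 for Flt1, 0.42 for Cdh5, 0.48 for Vwf and 0.60 for Kdr, while Tek stayed at 1.05.

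Only 1 trunk tumor, tumor 29, came from the FSP1-Cre;NT3 line, so site and line overlap in part. Pecam1, Cdh5, Kdr and Tek were higher in both perineal tumors than in any trunk tumor on the CPM scale, 4 of 10 genes against 19.6% of all genes tested (10.3% higher and 9.36% lower in perineal tumors). For Cdh5 and Kdr the margin was narrow, with 15.1 against 15.0 RPKM for Cdh5 and with tumors 36 and 25 both at 5.67 RPKM for Kdr. Tested between sites with edgeR, Tek had a log2 fold change of 0.90 (SE 0.34, adjusted p = 0.415, perineal over trunk) and Pecam1 of 0.76 (SE 0.29, adjusted p = 0.428). Those 2 genes had unadjusted p-values of 0.0307 and 0.0346 in the edgeR fit, and 10.5% of all genes had one under 0.05 (8.88% higher and 1.63% lower). With edgeR 0 of 16971 genes were called between the sites (1784 at an unadjusted p under 0.05), and DESeq2 called 598 (3.52%, of which 3.31% higher and 0.212% lower), none of them among the 10. Of the 8 endothelial genes 7 were higher in perineal tumors, with a median of 0.74, where 48.5% of all genes were higher. That median was 0.47 without tumor 18, 0.29 with line as a covariate and 0.28 within the FSP1-Cre;NT3 line.

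With site as a covariate in edgeR, Angpt2 had a log2 fold change between the lines of -1.25 and Tek of 0.88, and the trunk tumors alone gave -1.25 and 0.88 as well. Pecam1 had 0.43 and Flt1 0.22 in that fit. With line as a covariate, Tek had 0.30 and Angpt2 0.52 between the sites, so that Angpt2 was higher in the perineal tumors within the FSP1-Cre;NT3 line. These fits rest on tumor 29 as the only trunk tumor of its line, and no adjusted p of the 10 genes in them was under 0.05 with edgeR.

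Over the 6 tumors Tie1, Cdh5, Pecam1 and Kdr lay close to the mean pattern of the endothelial genes. The mean of the 8 endothelial genes, as log2 CPM around each gene's own mean, was -0.20, -1.27 and 0.19 in tumors 13, 18 and 25, against 0.70, 0.22 and 0.37 in tumors 27, 29 and 36. From tumor 18 to tumor 27 this spans 1.97 on the log2 scale, or 3.91-fold. Each gene was compared with the mean of the other endothelial genes by the root mean square difference over the 6 tumors, where a small value means a like pattern. Tie1 (0.16), Cdh5 (0.19), Pecam1 (0.22) and Kdr (0.29) lay closest, and 0.140% (Tie1) to 2.11% (Kdr) of all genes tested lay nearer. Flt1 and Vwf (0.43 each) swung more widely than the rest, with -1.85 and -1.96 in tumor 18. For these, 10.8% and 11.1% of all genes lay nearer. These distances describe 6 points that share their libraries and are no test.

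Tek and Emcn stood off from that pattern, and 14.0% and 43.4% of all genes tested lay nearer to it. Tek, at a distance of 0.50, had -0.49, -0.61 and -0.52 in the Osx-Cre;NT3 tumors and 0.59, 0.34 and 0.69 in the FSP1-Cre;NT3 tumors, so it followed the line and not the low level of tumor 18. Emcn, at 0.79, was farther from the other endothelial genes than a gene with the same level in every tumor would be (0.72), and its highest value was in tumor 13. Among the ligands, Vegfa lay at 0.54 from the mean of the 8 genes and Angpt2 at 0.93, against 0.63 for a gene without any change.

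**Figure D3:**
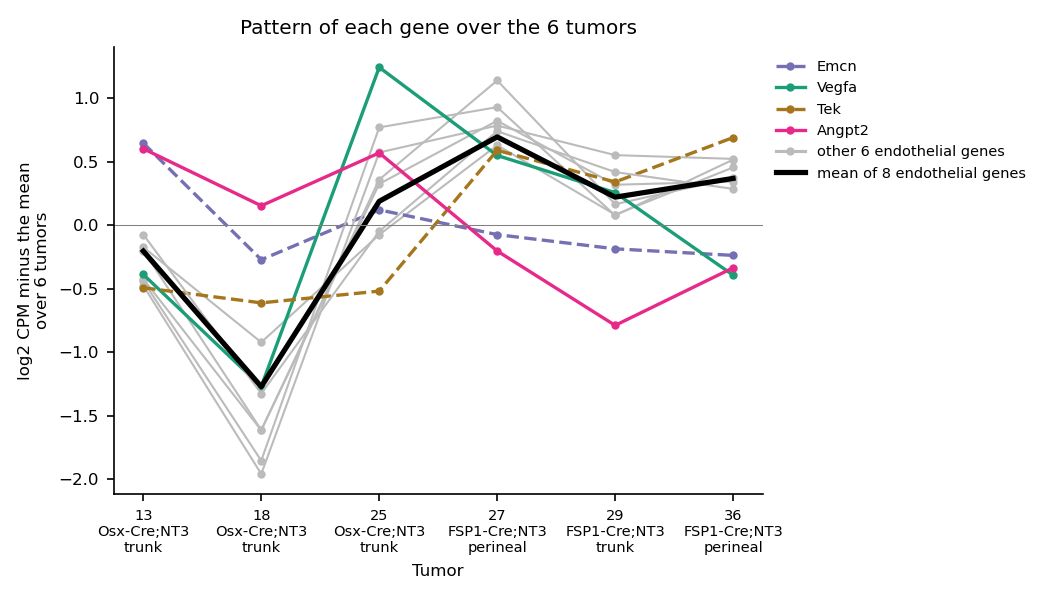
Pattern of each gene over the 6 tumors, as log2 CPM minus the gene's mean over the tumors (vertical axis). The tumors on the horizontal axis have no order, and lines only join the values of a gene. The black line is the mean of the 8 endothelial genes and runs from -1.27 in tumor 18 to 0.70 in tumor 27, Tek (dashed brown) steps between the lines, and Angpt2 (pink) runs from high in Osx-Cre;NT3 to low in FSP1-Cre;NT3 tumors.

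Among all genes tested, the 8 nearest to the mean endothelial pattern were Pde10a, Heyl, Ace, Cdh13, Gpr4, Bcl6b, Nos3 and Sema5b, at root mean square differences from 0.045 to 0.13. Nos3 is endothelial nitric oxide synthase, Ace is the angiotensin-converting enzyme of the endothelial surface, and Heyl is a Notch target of vessel walls. Pde10a had 2.07, 0.974 and 2.82 CPM in tumors 13, 18 and 25, against 4.02, 2.64 and 3.19 CPM in tumors 27, 29 and 36. With 6 tumors, many genes will lie near any given pattern, and by Pearson correlation 3 of these 8 were again among the nearest 8 (Pde10a, Gpr4 and Heyl).

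Ratios within a tumor do not depend on how libraries are scaled, and 6 pairs of the genes were compared. Angpt2 over its receptor Tek was 5.94, 4.73 and 5.92 in tumors 13, 18 and 25, against 1.6, 1.27 and 1.36 in tumors 27, 29 and 36, on the RPKM scale. The lines did not overlap, and the ratio was 3.91 times lower in FSP1-Cre;NT3 tumors (log2 difference -1.97, two-sided exact permutation p = 0.1, the smallest that 3 tumors against 3 allow, and 0.4 after Benjamini-Hochberg adjustment over the 6 pairs). Leaving out any 1 tumor kept the log2 difference between -2.08 and -1.89. The design cannot reach 0.05 in this test, so the test cannot decide the comparison. Tek and Angpt2 each separated the lines, in opposite directions, so the gap in their ratio followed from that. The ratio adds no support beyond the values of these genes.

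The other pairs overlapped. Vegfa over Kdr was 3.49, 4.33 and 6.29 in the Osx-Cre;NT3 tumors and 2.26, 3.63 and 2.01 in the FSP1-Cre;NT3 tumors (exact permutation p = 0.2, adjusted 0.4). Vegfa over Cdh5 was 1.11, 1.6 and 2.38 against 1.04, 1.21 and 0.756 (exact permutation p = 0.2, adjusted 0.4). Vegfa was therefore lower on average relative to Kdr and to Cdh5 in FSP1-Cre;NT3 tumors, by less than the spread allows to call. Kdr and Cdh5 were themselves higher on average in that line. A ratio to Emcn, which was lower on average there, was not taken. Flt1 over Kdr stayed between 0.502 and 0.789 in all 6 tumors, so RNA of Flt1 per annotated length was below that of Kdr in each tumor (exact permutation p = 0.7 between the lines). Transcript forms were not separated, and receptor protein was not measured. Tie1 over Tek ran from 2.33 to 5.29 (exact permutation p = 0.7) and Vwf over Cdh5 from 0.339 to 0.511 (exact permutation p = 0.4).

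**Figure D4:**
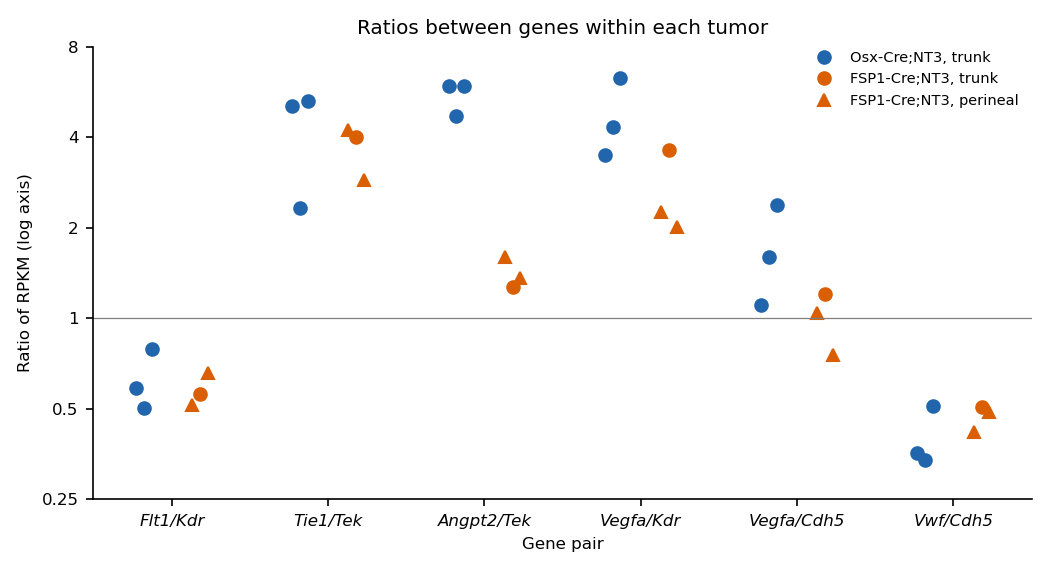
Ratios of RPKM between 6 pairs of genes (log axis), with Osx-Cre;NT3 tumors on the left and FSP1-Cre;NT3 tumors on the right of each pair. Points are single tumors and triangles are perineal tumors. For Angpt2/Tek the 3 Osx-Cre;NT3 tumors lie between 4.73 and 5.94 and the FSP1-Cre;NT3 tumors between 1.27 and 1.6, and the other 5 pairs overlap.

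To set the 10 genes in their pathways, 20 further lists were read in the same fit. Counts of genes below are of fitted log2 fold changes above or below 0 between the lines. With edgeR 0 of these genes passed the adjusted threshold, and with DESeq2 15 of the 121 tested passed, 13 with higher and 2 with lower levels in the FSP1-Cre;NT3 line, against 2.11% and 0.396% of all genes. DESeq2 gave no adjusted p for 7 of the 121, which therefore could not pass. Scaling by library size alone in place of TMM (edgeR's default scaling) raised the median log2 fold change of all genes by 0.111, and it changed the unadjusted calls from 1200 higher and 570 lower to 1471 higher and 257 lower.

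Other endothelial genes pointed the same way as the 8. Of 20 further genes of endothelial cells, 19 had higher and 1, Ecscr, lower levels in the FSP1-Cre;NT3 line. Their median was 0.72 on the log2 scale, and 7 had an unadjusted p under 0.05, all higher, against 7.31% of all genes. That number was 2 without tumor 27, 4 without tumor 36, 10 without tumor 25 and 0 with site as a covariate or in trunk tumors alone, and the median was 0.45 without tumor 18. Plvap, of the diaphragms of fenestrated capillaries, had 79.9, 25.5 and 92.2 CPM in tumors 13, 18 and 25, against 146, 105 and 102 CPM in tumors 27, 29 and 36. Cd34, a surface protein of endothelium and some stromal cells, had 87.9, 76.6 and 61.3 against 120, 102 and 152 CPM. The transcription factor Tal1 had the smallest p of the list, with 2.19, 1.47 and 2.45 against 5.89, 3.75 and 5.41 CPM (DESeq2 adjusted p = 0.0309). Erg, an ETS factor of the endothelium named after its values were seen, was the other gene of the list that DESeq2 called (adjusted p = 0.0491). Ecscr had 53.2, 48.1 and 29.5 against 36.9, 35.4 and 38.1 CPM, highest in tumors 13 and 18.

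In the VEGF family, 5 of 7 further ligands and receptors were higher and 2 lower, none with an unadjusted p under 0.05. Vegfb was at 42.6, 32.2 and 34.1 CPM in tumors 13, 18 and 25, against 30.3, 30.0 and 19.4 CPM in tumors 27, 29 and 36. Vegfd, a ligand of the lymphatic receptor listed as Figf, was at 2.03, 4.01 and 0.648 against 6.29, 5.23 and 7.35 CPM, without overlap (log2 fold change 1.49). The co-receptors Nrp1 and Nrp2 overlapped between the lines, with log2 fold changes of 0.24 and 0.52.

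Among partners of the angiopoietin system, 4 of 5 genes were higher. Svep1, an extracellular protein that binds TIE1, had 23.1, 22.9 and 21.5 CPM in the Osx-Cre;NT3 tumors and 48.6, 43.0 and 89.8 CPM in the FSP1-Cre;NT3 tumors, and rose by DESeq2 (log2 fold change 1.42, adjusted p = 0.00764) but not by edgeR (adjusted p = 0.432). Ptprb, the phosphatase that restrains TIE2, had a log2 fold change of 1.11. Angptl4, an angiopoietin-like protein, had 0.21. Angpt1, the ligand that activates TIE2 and named after its values were seen, was the 1 lower gene, with 6.05, 10.8 and 7.41 against 5.68, 3.54 and 6.19 CPM and overlap between the lines.

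Genes of sprouting tip cells did not share a direction, with 4 of 9 higher by TMM and 5 of 9 by library size alone. Esm1, a proteoglycan of tip cells that VEGF-A induces, had 13.3, 5.52 and 19.1 CPM in tumors 13, 18 and 25. It had 4.91, 1.90 and 2.91 CPM in tumors 27, 29 and 36. Every FSP1-Cre;NT3 tumor was lower by TMM, but on the RPKM scale the lines overlapped, with 1.99 in tumor 18 and 2.06 in tumor 27. Esm1 fell by DESeq2 (log2 fold change -1.98, adjusted p = 0.0243) and had an unadjusted p of 0.0109 with edgeR (adjusted p = 0.458). Pdgfb, which recruits mural cells to sprouts, and Adm, a peptide of hypoxic tissue, had log2 fold changes of -0.59 and -0.81. Cxcr4 had -0.05 and changed sign with the scaling. Aplnr, the apelin receptor of venous and sprouting endothelium, named after its values were seen, ran the other way at 24.4, 11.4 and 20.3 against 57.4, 43.7 and 30.5 CPM, while its ligand Apln had a log2 fold change of -0.88.

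Of the adhesion molecules that activated endothelium shows to leukocytes, 2 of 5 were higher, both selectins. Selp, which is stored with VWF in endothelial cells and is also carried by platelets, had 4.84, 2.57 and 3.44 CPM in the Osx-Cre;NT3 tumors and 39.0, 10.3 and 23 CPM in the FSP1-Cre;NT3 tumors. It rose by DESeq2 (log2 fold change 2.72, adjusted p = 9.90e-05), with an edgeR adjusted p of 0.425. Sele, an endothelial selectin named after its values were seen, had 0.787, 0.338 and 0.282 against 6.63, 1.21 and 10.6 CPM (DESeq2 adjusted p = 0.000792, edgeR adjusted p = 0.432). Vcam1 and Icam1, which many other cells express, had log2 fold changes of -0.16 and -0.34. Genes of platelets were higher on average as well, 4 of 4 tested, with Pf4 at 15.3, 24.6 and 4.73 against 24.3, 13.6 and 30.9 CPM and Itga2b at 4.02, 4.44 and 1.30 against 8.07, 7.88 and 6.88 CPM. Their part in the Selp, Vwf and Pecam1 values was not tested.

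Lymphatic genes other than Pdpn were low, and 5 of 6 tested were higher in FSP1-Cre;NT3 tumors. Prox1, the transcription factor that sets lymphatic identity, had 0.248, 0.286 and 0.310 CPM against 2.06, 1.00 and 2.38 CPM and rose by DESeq2 (log2 fold change 2.67, adjusted p = 0.00055, edgeR adjusted p = 0.412). Lyve1, a hyaluronan receptor of lymphatic vessels and some macrophages, had 7.0, 8.04 and 2.06 against 17.2, 13.3 and 32.3 CPM (DESeq2 adjusted p = 0.0532). Flt4, the receptor of VEGF-C and VEGF-D, had a log2 fold change of 0.95. Pdpn, which keratinocytes and fibroblasts express too, was the 1 lower gene and by far the most abundant, at 572, 512 and 466 against 354, 369 and 157 CPM. With Pdpn in it, the list summed to 493 to 605 CPM in Osx-Cre;NT3 and 246 to 424 CPM in FSP1-Cre;NT3 tumors. Ccl21a had 0 counts in every tumor, where 3 counts would be 0.0184 to 0.0579 CPM.

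Vessel type did not follow 1 direction. Of 5 arterial genes, 1 was higher by TMM and 3 by library size alone. Among them Gja5, a connexin of arterial endothelium, had a log2 fold change of 0.79, Gja4 of -0.83, Efnb2 of -0.06 and Hey1 of -0.07. Gja4 had a mean of 58.3 RPKM, against 24.7 for Pecam1 and 1.44 for Gja5, and which cells it came from was not tested. Of 3 venous genes 2 were higher, Nr2f2 with 0.82 (unadjusted p = 0.0152 in the edgeR fit across all genes) and Ephb4 with 0.53, and Ackr1, listed as Darc, had -0.09. Of 4 capillary genes 3 were higher by TMM and 4 by library size alone. Gpihbp1 had -0.11, Rgcc (listed as 1190002H23Rik) 0.25, and the large value of Car4 came from tumor 36, at 91.7 CPM against 0.0845 to 3.07 CPM in the other tumors.

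**Figure D5:**
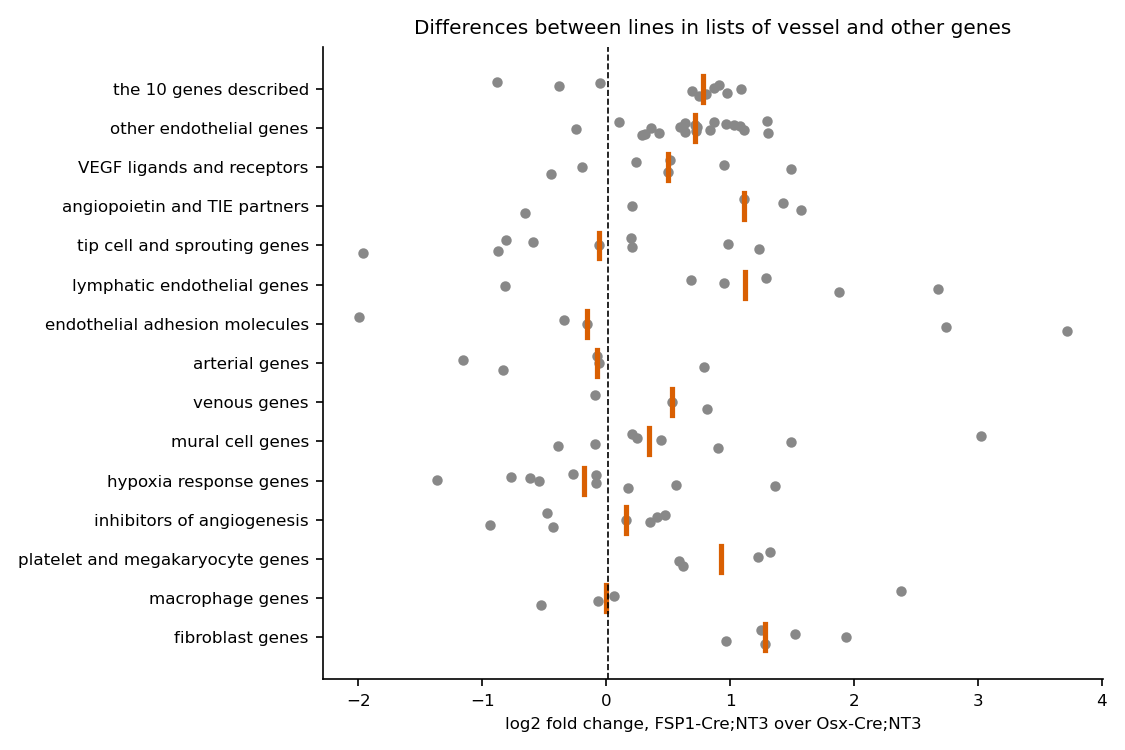
Log2 fold change between the lines (horizontal axis, FSP1-Cre;NT3 over Osx-Cre;NT3) of each gene in 14 of the lists and of the 10 genes. Grey points are genes, orange bars are list medians and the dashed line is the median of all genes tested (0.015). Nearly all further endothelial genes and all fibroblast genes lie to its right, and hypoxia response and tip cell genes lie on both sides.

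Cells around the vessels were read from mural and smooth muscle genes. Of 8 mural genes 6 were higher by TMM and 7 by library size alone, with Pdgfrb, the receptor that holds pericytes to vessels, at 56.3, 33.5 and 62.1 CPM in tumors 13, 18 and 25, against 112, 80.2 and 91.2 CPM in tumors 27, 29 and 36, without overlap (log2 fold change 0.90). Rgs5 and Mcam, also of pericytes, overlapped, with -0.39 and 0.21. Des (293 CPM) and the smooth muscle genes Acta2 (498 CPM), Tagln (644 CPM), Myh11 (689 CPM) and Cnn1 (239 CPM) were highest in tumor 36, and the median log2 fold change of the 4 smooth muscle genes went from 1.74 to -0.13 without tumor 36.

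Hypoxia response genes were summed at 2489 to 2892 CPM in Osx-Cre;NT3 and 2014 to 2428 CPM in FSP1-Cre;NT3 tumors, without overlap by TMM, but scaled by library size alone the sums of 2347 to 2925 and 2124 to 2411 CPM overlapped. Of 10 genes 3 were higher by TMM and 5 by library size alone. Bnip3, a mitochondrial protein that hypoxia induces, had 68.7, 76.2 and 85.5 CPM in tumors 13, 18 and 25, against 22.3, 33.3 and 33.7 CPM in tumors 27, 29 and 36. It fell by DESeq2 (log2 fold change -1.37, adjusted p = 0.000155) and had the smallest edgeR p of the list (0.00059, adjusted p = 0.412). The glycolytic genes Pgk1 and Ldha had log2 fold changes of -0.77 and -0.54, and Hif1a had 0.17. Vegfa, itself a target of hypoxia signaling, did not share the order of Bnip3, since its highest and its lowest tumor were both Osx-Cre;NT3. Ndrg1, Egln3 and Slc2a1, hypoxia response genes named after their values were seen, were highest in tumor 25 and lowest in tumor 18, as Vegfa was. The other genes of the list did not share both of these extremes. Of 7 inhibitors of angiogenesis 4 were higher and 3 lower, with Thbs2, a thrombospondin, at 146, 383 and 272 against 115, 121 and 183 CPM, Timp3 at a log2 fold change of 0.16 and Serpinf1 at 0.47.

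Markers of other cells moved between the lines beside the endothelial genes. Besides the fibroblast sums given above, DESeq2 called Col1a1 (adjusted p = 0.0123), Col1a2 (adjusted p = 0.00458) and Pdgfra (adjusted p = 0.00399), all higher in the FSP1-Cre;NT3 line, and Dcn had a log2 fold change of 1.52. All 6 adipocyte genes were higher on average and came mainly from tumors 36 and 27, with summed levels of 149 and 39.0 CPM against 3.15 to 13.6 CPM in the other 4. Of 4 macrophage genes 2 were higher by TMM and 3 by library size alone, with Mrc1 at 16.2, 42.5 and 18.8 against 114, 45.9 and 243 CPM (DESeq2 adjusted p = 0.0143) and Cd68, Adgre1 (listed as Emr1) and Csf1r at log2 fold changes of -0.53, -0.06 and 0.06. The study had screened its tumors by PCR for low levels of globin and Cd68 RNA. Of 3 red blood cell genes tested 3 were higher, with the globin Hbb-bs (listed as Beta-s) at 14.9 to 21.5 against 19.2 to 43.2 CPM. Of 4 basal keratinocyte genes 0 were higher by TMM and 1 by library size alone, with sums of 9851 to 13991 against 5353 to 12470 CPM. Simple epithelium genes were higher in 3 of 4, and their median changed from 0.61 to -0.82 without tumor 36. The part of these cells in the differences of the 10 genes was not tested.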

How the data were processed

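RNA of 6 tumors, 3 per line, was measured by RNA-Seq. The authors deposited raw counts per gene entry and RPKM values. According to the paper's methods, reads were trimmed, aligned to mm10 with HISAT2 and counted with featureCounts, while the submitters' processing notes name bcl2fastq, TopHat2 2.0.6 and HTSeq. Which of these made the deposited counts, the annotation and the strandedness are not given in the sources used here. Every deposited count was even (0 odd values), for which the sources used here give no reason. In the deposited RPKM values the library totals exceed the summed gene counts, which make up 77.2% to 81.5% of them. The limits that a count of 0 allows (3 counts) cover counting error only.

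The test was edgeR 4.0.16 run under R 4.3.3 on the counts (filterByExpr, TMM, glmQLFit, glmQLFTest), across all genes, FSP1-Cre;NT3 over Osx-Cre;NT3 and perineal over trunk, with Benjamini-Hochberg adjustment and a threshold of 0.05. CPM are TMM-scaled, and log2 CPM used a prior count of 2. Replicates are separately labeled tumors. Alternatives were DESeq2 1.42.0, library sizes alone, no filter on low counts, at least 10 counts in every tumor, halved counts, the other factor as a covariate, subsets by site or line, and leaving out each tumor. DESeq2 without each tumor was added after the data were seen. Scripts were tested on simulated data first. Ratios of RPKM used a two-sided exact permutation test over 20 splits. The genes and lists were chosen with earlier results of these data known. Named were all 10 genes, of each list the 3 genes with the highest mean RPKM and the one with the smallest p, and the 8 nearest genes. Promoters came from a RefSeq table of GRCm38.p6. Gene positions were compared with GENCODE M21: the entry of Pecam1 ends 35347 bases, and that of Vwf starts 6189 bases, from the GENCODE gene. No column of per-sample values was left out.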

Additional observations from a re-analysis of the deposited data

Results flagged for a closer look

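Both results that lay beyond Dixon's critical value concern tumor 36, the perineal FSP1-Cre;NT3 tumor with the shortest latency. Its mean log2 CPM over 4 smooth muscle genes was 8.90, and the next highest tumor had 5.41. Over 4 basal keratinocyte genes its mean log2 CPM was 9.88, and the next lowest tumor had 10.7. Of 36 results searched for an outlying tumor, chance alone would give 1.8, and 2 were found. None of the 10 vessel genes was among them.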

How the results depend on the processing

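No paired analysis was made, because the sources used here give no pairing of tumors between the lines. With edgeR, each alternative run left 0 genes called between the lines. Between the sites edgeR called 0 to 567 genes on leaving out 1 tumor, 567 without tumor 27 and 2 without tumor 25. DESeq2 called 412 genes between the lines and 598 between the sites. Without tumors 13, 18, 25, 27, 29 and 36 in turn DESeq2 called 230, 503, 3637, 460, 736 and 188 genes between the lines and 318, 649, 660, 1485, 736 and 14 between the sites, so single tumors change these counts many times over. Tek passed the DESeq2 threshold between the lines at a log2 fold change of 1.08 and, without the same tumors in turn, at 1.10, 1.04, 1.08, 1.07, 1.17 and 0.99, and between the sites only without tumor 29, at 1.17, where both contrasts hold the same tumors. DESeq2 without tumor 25 also called Pecam1 (0.89), Cdh5 (1.23), Kdr (1.5), Flt1 (1.51), Vwf (1.64) and Angpt2 (-0.84), and without tumor 18 Angpt2 (-1.02). With edgeR none of the 10 genes passed the threshold under any alternative run. The direction of Vegfa between the lines changed with library sizes alone (0.040), with site as a covariate (0.016), in trunk tumors alone (0.014) and on leaving out 1 tumor (-0.46 to 0.91 with edgeR, and with DESeq2 0.93 without tumor 25 and 0.15 without tumor 36). Between the sites Vegfa ran from -0.65 to 0.47 on leaving out 1 tumor with edgeR, and with DESeq2 it had 0.47 without tumor 25 and 0.27 without tumor 36. Emcn between the sites had 0.027 with line as a covariate and 0.023 in FSP1-Cre;NT3 tumors alone, and Angpt2 0.52 and 0.51. The ratio Tie1/Tek turned with a pseudocount of 1 (0.13) and ran from -0.50 to 0.088 on leaving out 1 tumor, and Flt1/Kdr from -0.25 to 0.078. Of the 8 genes nearest to the endothelial pattern, 3 were shared with the nearest by Pearson correlation. The cause of these changes was not tested. The number of tumors, and not depth, limits these results.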
